A study of Mus musculus with 143 samples.

Results

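The genes described here are the 5 muscarinic acetylcholine receptors (Chrm1, Chrm2, Chrm3, Chrm4 and Chrm5) and 5 genes of acetylcholine-releasing neurons (Chat, Slc18a3, Slc5a7, Ache and Slc10a4). They were taken by name, with Ensembl identifiers mapped to symbols, and make up 10 of the 41128 mouse genes in the count table. All 10 were in the table, and 9 had enough counts to be tested within each strategy; Chrm5 did not.

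The study sequenced polyadenylated RNA from the striatum of zQ175 mice, a knock-in line in which the mouse Htt gene carries an expanded CAG repeat as a model of Huntington's disease, and of wild-type (WT) mice. Mice of each genotype were given either HTT-10150 (an siRNA, a short RNA that lowers its target's mRNA, directed at Htt) or the non-targeting siRNA NTC, or were left Untreated. In strategy 2[4]6 mice were treated at 2 months and collected at 6 months, in 6[4]10 they were treated at 6 months and collected at 10 months, and in 2+6[8]10 they were treated at 2 and 6 months and collected at 10 months. This gave 18 groups and 143 libraries, with 8 mice a group (4 females and 4 males) except WT mice given HTT-10150 in 2+6[8]10, which had 2 females and 5 males. The tissue was whole striatum, so fewer cells of a type and less RNA per cell cannot be told apart in any result below.

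Acetylcholine in the striatum comes mainly from large, sparse, tonically active interneurons. Chat makes acetylcholine from choline, Slc18a3 (the vesicular acetylcholine transporter) loads it into vesicles, Ache breaks it down in the cleft, and Slc5a7 (the high-affinity choline transporter) takes choline back up. Slc10a4 is a vesicular protein of cholinergic and monoaminergic neurons. Of the receptors, Chrm1, Chrm3 and Chrm5 couple to Gq and phospholipase C, and Chrm2 and Chrm4 to Gi and Go, which lower cyclic AMP. In the striatum, Chrm1 is made by medium spiny neurons of both output pathways, Chrm4 mainly by those of the direct pathway, and Chrm2 by cholinergic and other interneurons. Slc18a3 lies within an intron of Chat on the same strand, an arrangement known as the cholinergic gene locus.

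Upstream sequences are shown for Chrm4, the receptor with the largest genotype difference, and for Slc18a3 and Slc5a7, transporters of the presynaptic set whose levels moved together across libraries. Each is the 250 bases before the gene's start, 5′ to 3′ on the gene's strand, from RefSeq on GRCm38.p6. Capitals mark matches on either strand to GGGCGG (the GC box), CCAAT (the CCAAT box), TATAAA (the TATA box), CAGCTG (an E box), TAATTA (a homeodomain core) or TGACGTCA (the CRE).
Chrm4 (chr2:91921939-91922188, plus strand): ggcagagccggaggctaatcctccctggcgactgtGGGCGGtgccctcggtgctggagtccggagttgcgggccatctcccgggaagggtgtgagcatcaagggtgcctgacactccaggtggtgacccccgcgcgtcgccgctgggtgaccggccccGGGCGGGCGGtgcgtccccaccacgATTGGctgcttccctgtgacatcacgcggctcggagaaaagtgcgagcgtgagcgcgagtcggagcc
Slc18a3 (chr14:32464851-32465100, minus strand): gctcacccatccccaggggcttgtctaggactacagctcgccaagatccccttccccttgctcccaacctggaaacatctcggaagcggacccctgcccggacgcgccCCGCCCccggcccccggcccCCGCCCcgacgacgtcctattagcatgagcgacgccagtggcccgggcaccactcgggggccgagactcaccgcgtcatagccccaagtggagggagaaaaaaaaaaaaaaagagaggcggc
Slc5a7 (chr17:54299035-54299284, minus strand): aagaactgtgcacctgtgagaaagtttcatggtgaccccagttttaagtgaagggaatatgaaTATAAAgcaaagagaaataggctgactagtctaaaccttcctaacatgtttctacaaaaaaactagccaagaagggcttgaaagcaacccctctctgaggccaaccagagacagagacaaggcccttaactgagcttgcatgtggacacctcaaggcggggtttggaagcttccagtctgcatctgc
The Chrm4 window held 3 GC boxes, of which 2 overlapped, and 1 CCAAT match, with a GC content of 70.0%. The Slc18a3 window held 2 GC boxes, with a GC content of 66.0%, and the Slc5a7 window held 1 TATAAA match, with a GC content of 45.6%. Of 32851 mouse windows of this length, 32.7% held a GC box, 33.8% CCAAT, 12.4% TATAAA, 13% an E box, 4.84% TAATTA and 1.55% a CRE. These matches describe letters in the windows and are not binding sites. Windows were available for 9 of the 10 genes. RefSeq places the Chrm4 start 5060 bases upstream of the single exon of 1440 bases that GENCODE M21 gives it, and the starts of Chat and Slc18a3 are 1059 bases apart.

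Total counts per library ran from 12.55 to 29.19 M. Levels are given as CPM, counts per 1000000 after TMM scaling over all 143 libraries. Htt, the target of HTT-10150, averaged 99.5%, 80.4% and 78.1% of its NTC mean in zQ175 mice given HTT-10150 in 2[4]6, 6[4]10 and 2+6[8]10, and 83.8%, 79.0% and 72.0% in WT mice. In zQ175 mice of 2[4]6, 1 of 8 treated libraries lay below the lowest NTC library. Markers of tissue that lies beside the striatum varied widely between libraries. The summed level of 4 cortical projection neuron markers ran from 11.3 to 395 CPM in zQ175 and from 10.0 to 376 CPM in WT libraries. The sum of 4 thalamic markers ran from 11.9 to 85.0 CPM in zQ175 and from 13.96 to 64.8 CPM in WT libraries, and that of 4 choroid plexus markers from 10.98 to 5284 CPM in zQ175 and from 19.1 to 2672 CPM in WT libraries. The median cortical sum was 64.2 CPM in zQ175 and 60.8 CPM in WT libraries. Lhx9 (thalamic) and Kcnj13 (choroid plexus) were at 0 in some libraries of each genotype. Of the 143 libraries, 22 had over 3 times the median cortical or over 2 times the median thalamic sum, 10 of them zQ175 and 12 WT. The 8 medium spiny neuron markers were present throughout, with sums of 2587 to 5308 CPM in zQ175 and 6969 to 10562 CPM in WT libraries.

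Levels between genes were compared in TPM, transcripts per 1000000, which corrects for annotated length. The annotation behind the TPM was not stated. GENCODE M21 gives Chrm4 1440 exonic bases and Chrm1 6487, while RefSeq starts Chrm4 5060 bases further upstream. The level of Chrm4 against other genes is therefore uncertain. The median levels over 72 zQ175 libraries were 89.4 TPM for Ache, 74.4 for Chrm1, 47.6 for Chrm4, 20.4 for Slc5a7, 19.4 for Chat, 12.2 for Slc10a4, 11.7 for Slc18a3, 6.74 for Chrm3, 5.26 for Chrm2 and 0.309 for Chrm5. Over 71 WT libraries the medians were 82.9 TPM for Ache, 84.9 for Chrm1, 82.3 for Chrm4, 21.4 for Slc5a7, 21.7 for Chat, 12.6 for Slc10a4, 13.2 for Slc18a3, 7.59 for Chrm3, 5.19 for Chrm2 and 0.386 for Chrm5. Relative to WT, zQ175 medians were lower in CPM than in TPM. In CPM they were 45.3 in zQ175 and 52.2 in WT for Slc5a7, and 12.8 and 13.4 for Chrm2. The size of a small genotype difference therefore depends on the scale. Genotype tests used counts and were not repeated on TPM. In zQ175 libraries the range of Chrm4 (29.0 to 59.9 TPM) lay below the ranges of Chrm1 (62.4 to 84.5 TPM) and Ache (75.2 to 109.9 TPM). In WT libraries the 3 genes shared most of their ranges, with 62.1 to 99.7 TPM for Chrm4, 74.8 to 98.1 TPM for Chrm1 and 66.5 to 100.3 TPM for Ache. In each genotype the ranges of Chat and Slc5a7 overlapped, as did those of Slc18a3 and Slc10a4 and those of Chrm3 and Chrm2. Chrm5 was near the limit of detection, with 0 to 13 counts in zQ175 and 1 to 18 counts in WT libraries and a median of 5 in each.

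The first question was which of these genes differed between zQ175 and WT striatum. Genotypes were compared within each treatment and strategy, 9 comparisons that share no animals. They are not fully independent, since those of a strategy share 1 estimate of the spread. Of 63 codes in the library names, described at the end, 47 were held by more than 1 treatment and 62 by 1 genotype. Mice of other treatments were more alike with the same code (median correlation 0.131) than with another (-0.0366). The 3 treatments of a strategy are therefore not independent repeats on this count either. Chrm4 fell in all 9, to 53.0% to 56.5% of the WT mean, and Chrm1 fell in all 9, to 81.3% to 88.6%. Of the presynaptic genes, Chat fell in 8 of 9 comparisons, Slc18a3 in 7, Slc5a7 in 7 and Slc10a4 in 3. Chrm3 fell in 2, Ache rose in 2 and Chrm2 passed in 0. Calls rest on edgeR's quasi-likelihood test with sex in the model and need an adjusted p (Benjamini-Hochberg, across every gene tested) under 0.05, and fold changes below are log2 of zQ175 over WT with their standard errors.

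Of the 9 tested members in 2[4]6, Untreated mice had 6 lower and 0 higher, where 17.2% lower and 15.3% higher was the share of all genes. NTC mice had 5 lower and 0 higher (all genes 18.5% lower and 15.9% higher), and HTT-10150 mice 4 lower and 0 higher (all genes 17.4% lower and 16.1% higher). In 6[4]10, Untreated mice had 5 lower and 0 higher (all genes 17% lower and 19.2% higher), NTC mice 4 lower and 1 higher (all genes 15.9% lower and 16.8% higher) and HTT-10150 mice 5 lower and 0 higher (all genes 16.9% lower and 17.8% higher). In 2+6[8]10, Untreated mice had 4 lower and 0 higher (all genes 18.3% lower and 17.1% higher), NTC mice 6 lower and 0 higher (all genes 21.4% lower and 20.7% higher) and HTT-10150 mice 6 lower and 1 higher (all genes 18.7% lower and 17.5% higher). The median log2 fold change of the tested members in Untreated mice was -0.16 in 2[4]6, -0.17 in 6[4]10 and -0.21 in 2+6[8]10, against 0.00, 0.01 and 0.00 over all genes. These shares and medians are descriptions of a chosen list. Leaving out the mice of a single replicate number lowered some counts by over 1.5 times. Without replicate 4, 2 members each passed in Untreated, NTC and HTT-10150 mice of 2[4]6 and 3 in NTC mice of 6[4]10. Without replicate 3, 3 passed in Untreated mice of 2[4]6, and without replicate 2, 3 passed in HTT-10150 mice of 6[4]10.

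**Figure D1:**
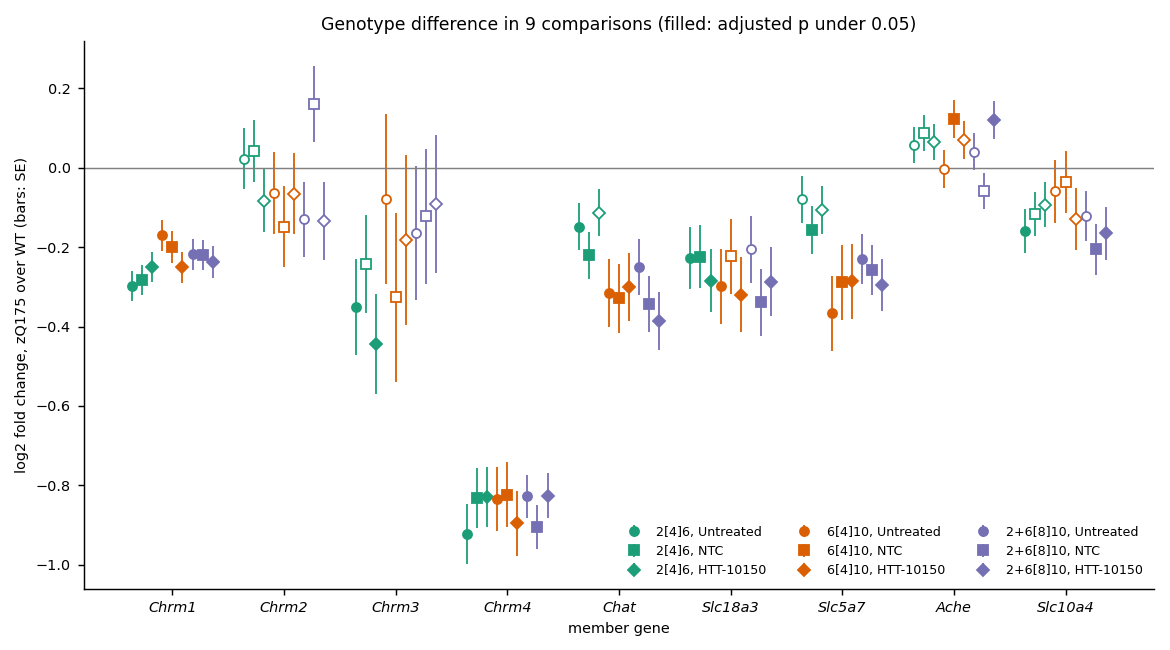
Log2 fold change of zQ175 over WT with 1 SE for the 9 tested genes in each of 9 comparisons of treatment and strategy; filled points have an adjusted p under 0.05. Chrm4 sits between -0.92 and -0.82 throughout and Chrm1 between -0.30 and -0.17, while Chrm2 and Ache lie around 0.

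Chrm4 (ENSMUSG00000040495, chromosome 2, 91927249 to 91928688, plus strand), the Gi-coupled M4 receptor, showed the largest difference of the members. In Untreated mice of 2[4]6 it ran from 24.5 to 35.2 CPM with a median of 29.0 CPM in zQ175, against 48.5 to 64.8 CPM with a median of 54.2 CPM in WT. In 6[4]10 it ran from 27.2 to 33.97 CPM with a median of 31.5 CPM in zQ175, against 43.5 to 62.4 CPM with a median of 57.3 CPM in WT. In 2+6[8]10 it ran from 26.7 to 32.3 CPM with a median of 29.2 CPM in zQ175, against 47.7 to 61.2 CPM with a median of 51.8 CPM in WT. Every zQ175 library lay below every WT library in each of the 9 comparisons, those with NTC and HTT-10150 included. The share of all genes without overlap was not computed, here or for the members below. How unusual such separation is among all genes was therefore not tested. The fold changes in Untreated mice were -0.92 ± 0.08 in 2[4]6 (adjusted p = 5.73e-14), -0.83 ± 0.08 in 6[4]10 (adjusted p = 1.72e-11) and -0.83 ± 0.05 in 2+6[8]10 (adjusted p = 6.32e-18). Over the 9 comparisons they ran from -0.92 to -0.82.

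Chrm1 (ENSMUSG00000032773, chromosome 19, 8663789 to 8683587, plus strand), the Gq-coupled M1 receptor, differed less but in every comparison. In Untreated mice of 2[4]6 it ran from 129 to 151.5 CPM with a median of 138 CPM in zQ175, against 160.5 to 177 CPM with a median of 171 CPM in WT. In 6[4]10 it ran from 133.4 to 157 CPM with a median of 143.98 CPM in zQ175, against 149 to 174.9 CPM with a median of 163 CPM in WT. In 2+6[8]10 it ran from 123.6 to 146 CPM with a median of 131 CPM in zQ175, against 144.8 to 161 CPM with a median of 155 CPM in WT. Of 8 zQ175 libraries, 8 in 2[4]6, 7 in 6[4]10 and 7 in 2+6[8]10 lay below the lowest WT library. The fold changes were -0.30 ± 0.04 in 2[4]6 (adjusted p = 8.80e-09), -0.17 ± 0.04 in 6[4]10 (adjusted p = 0.000601) and -0.22 ± 0.04 in 2+6[8]10 (adjusted p = 8.74e-06). The genotypes did not overlap in 5 of the 9 comparisons.

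The medium spiny neuron markers, a list of genes of the striatal output cells, moved with both receptors. All 8 were lower in zQ175 in each strategy in Untreated mice, with a median fold change of -0.86 in 2[4]6, -0.78 in 6[4]10 and -0.82 in 2+6[8]10. The opioid precursor Penk fell most (-1.29 ± 0.07, -1.20 ± 0.08 and -1.25 ± 0.05 in these strategies), and the dopamine receptor Drd1, of the direct pathway cells that make Chrm4, by an amount near that of Chrm4 (-0.74 ± 0.07, -0.77 ± 0.09 and -0.84 ± 0.05). Of 5 GABAergic interneuron markers 3, 2 and 2 were lower and 0 higher, Th (-0.42 ± 0.11, -0.38 ± 0.10 and -0.52 ± 0.12) and Nos1 (-0.24 ± 0.05, -0.28 ± 0.07 and -0.20 ± 0.05) in each. The part of the medium spiny markers in the results for Chrm4 and Chrm1 was not tested.

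Chrm3 (ENSMUSG00000046159, chromosome 13, 9875486 to 10360847, minus strand), the Gq-coupled M3 receptor, was lower at 6 months in Untreated and in HTT-10150 mice. In Untreated mice of 2[4]6 it ran from 11.5 to 16.04 CPM with a median of 14.7 CPM in zQ175, against 15.3 to 26.6 CPM with a median of 16.2 CPM in WT (-0.35 ± 0.12, adjusted p = 0.0216). With HTT-10150 it ran from 9.10 to 15.9 CPM with a median of 11.4 CPM in zQ175, against 13.2 to 25.2 CPM with a median of 15.4 CPM in WT (-0.44 ± 0.13, adjusted p = 0.00509). In each of these comparisons 6 of 8 zQ175 libraries lay below the lowest WT library. Over all 9 comparisons the estimates ran from -0.44 to -0.08, all below 0. The Untreated call was lost in 5 of 14 alternatives (adjusted p up to 0.209), with estimates from -0.44 to -0.16, and the HTT-10150 call in 1 of 14 alternatives (adjusted p up to 0.0526). Without the libraries high in cortical or thalamic markers the Untreated estimate was -0.16 (adjusted p = 0.130), and without replicate 1 it was -0.17 (adjusted p = 0.209). Chrm3 followed the cortical markers across libraries, as given with the correlations. In Untreated mice of 2[4]6 the 4 cortical markers had a median fold change of -0.72, and their sum had a median of 75.6 CPM in zQ175 and 100.01 CPM in WT. With the cortical and thalamic sums as covariates, an alternative added after the data were seen, it passed as lower in 7 of 9 comparisons.

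Chrm2 (ENSMUSG00000045613, chromosome 6, 36388084 to 36528414, plus strand), the Gi-coupled M2 receptor, did not pass in any comparison. In Untreated mice of 2[4]6 it ran from 11.8 to 15.5 CPM with a median of 13.9 CPM in zQ175, against 11.5 to 16.9 CPM with a median of 13.7 CPM in WT. The groups overlapped in all 9 comparisons, and the fold changes ran from -0.15 to 0.16, with 0.178 as the lowest adjusted p by edgeR. Chrm5 (ENSMUSG00000074939, chromosome 2, 112479171 to 112480769, minus strand), the Gq-coupled M5 receptor known from dopamine neurons, had group means of 0.161 to 0.372 CPM in zQ175 and 0.193 to 0.445 CPM in WT mice. A genotype difference in Chrm5 was not detectable at this depth.

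**Figure D2:**
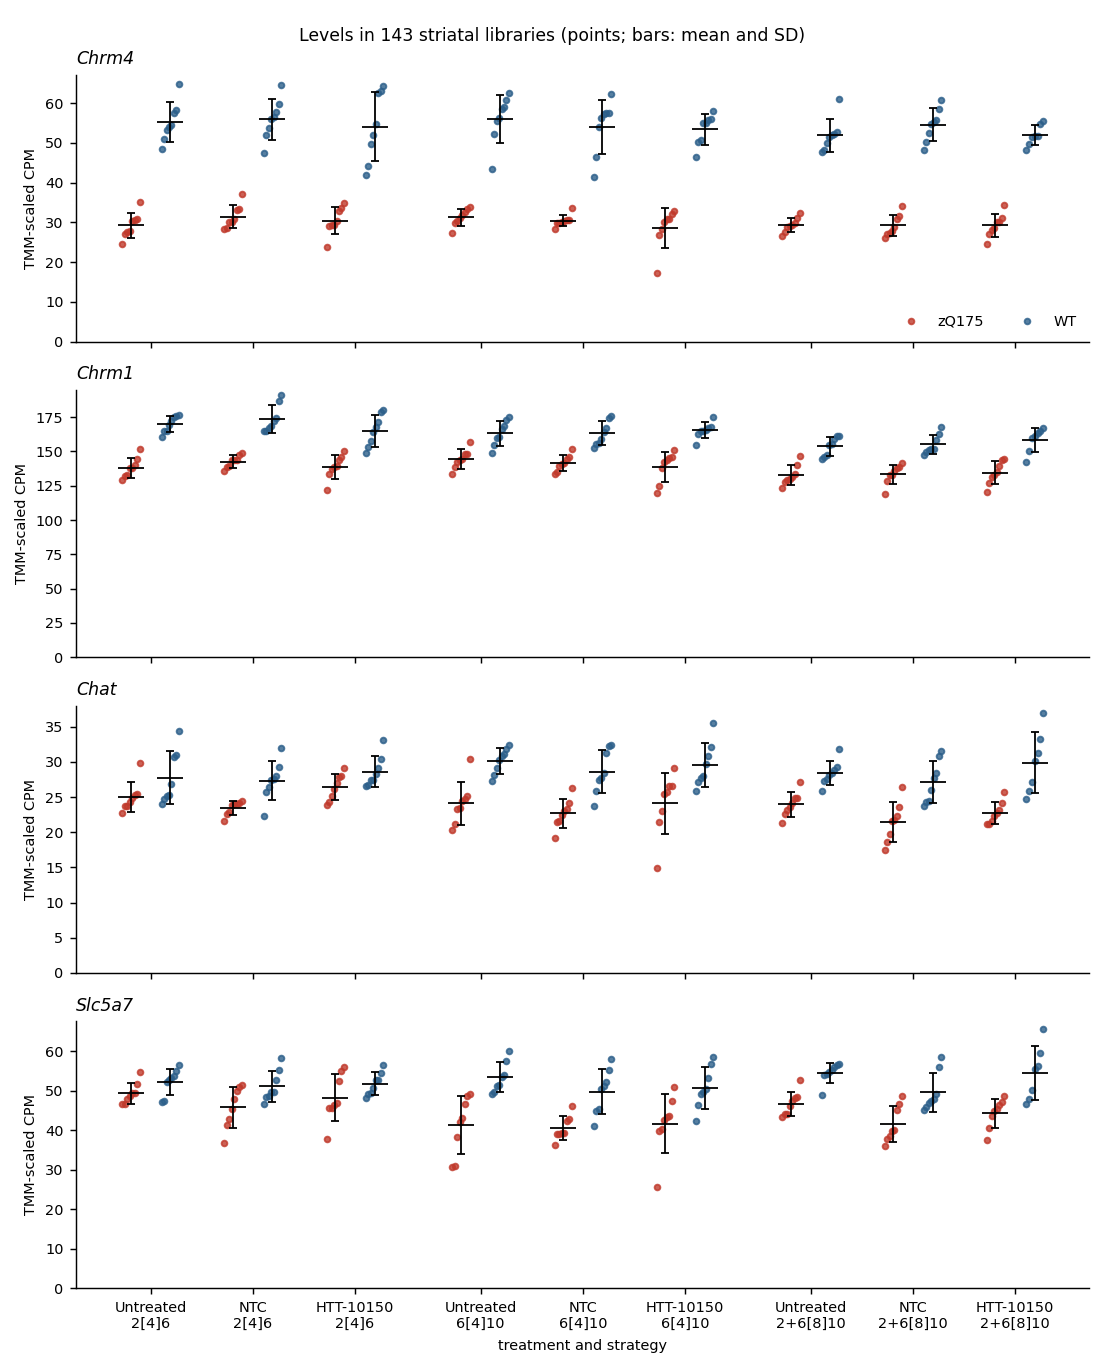
TMM-scaled CPM of Chrm4, Chrm1, Chat and Slc5a7 in each of 143 libraries, by treatment and strategy, with zQ175 left of WT and the mean and SD of each of the 18 groups. The zQ175 points lie below all WT points for Chrm4 in each pair of groups, while those of Chat overlap with the WT points in each pair.

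Among the presynaptic genes, Chat (ENSMUSG00000021919, chromosome 14, 32408203 to 32465989, minus strand), the enzyme that makes acetylcholine, fell in Untreated mice of all 3 strategies. In 2[4]6 it ran from 22.7 to 29.8 CPM with a median of 24.6 CPM in zQ175, against 24.0 to 34.4 CPM with a median of 26.1 CPM in WT. In 6[4]10 it ran from 20.3 to 30.4 CPM with a median of 24.0 CPM in zQ175, against 27.3 to 32.5 CPM with a median of 30.5 CPM in WT. In 2+6[8]10 it ran from 21.3 to 27.1 CPM with a median of 23.9 CPM in zQ175, against 25.9 to 31.8 CPM with a median of 28.3 CPM in WT. The groups overlapped in each strategy, with 3, 7 and 7 of 8 zQ175 libraries below the lowest WT library. The fold changes were -0.15 ± 0.06 in 2[4]6 (adjusted p = 0.0460), -0.31 ± 0.09 in 6[4]10 (adjusted p = 0.00319) and -0.25 ± 0.07 in 2+6[8]10 (adjusted p = 0.00382). The 2[4]6 call in Untreated mice was lost in 10 of 14 alternatives (adjusted p up to 0.262), DESeq2 among them (adjusted p = 0.0506). The comparison that did not pass was HTT-10150 in 2[4]6 (-0.11 ± 0.06, adjusted p = 0.139).

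Slc18a3 (ENSMUSG00000100241, chromosome 14, 32462438 to 32464850, minus strand), from the same locus, fell in Untreated mice of 2[4]6 and 6[4]10. In 2[4]6 it ran from 11.6 to 16.6 CPM with a median of 12.51 CPM in zQ175, against 12.6 to 17.1 CPM with a median of 15.5 CPM in WT (-0.23 ± 0.08, adjusted p = 0.0205). In 6[4]10 it ran from 9.30 to 14.9 CPM with a median of 13.1 CPM in zQ175, against 13.4 to 20.3 CPM with a median of 15.95 CPM in WT (-0.30 ± 0.09, adjusted p = 0.0108). In 2+6[8]10 it ran from 10.4 to 13.5 CPM with a median of 11.3 CPM in zQ175, against 11.6 to 16.8 CPM with a median of 12.6 CPM in WT, which did not pass (-0.21 ± 0.08, adjusted p = 0.0504). The groups overlapped in each, with 5, 5 and 5 of 8 zQ175 libraries below the lowest WT library. NTC mice of 6[4]10 did not pass either (-0.22 ± 0.09, adjusted p = 0.0650). The calls in Untreated mice were lost in 3 of 14 alternatives (adjusted p up to 0.152) in 2[4]6 and in 1 of 14 alternatives (adjusted p up to 0.217) in 6[4]10.

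Slc5a7 (ENSMUSG00000023945, chromosome 17, 54273590 to 54299034, minus strand), the choline transporter, fell in Untreated mice of both strategies collected at 10 months. In 2[4]6 it ran from 46.6 to 54.7 CPM with a median of 49.0 CPM in zQ175, against 47.3 to 56.6 CPM with a median of 52.9 CPM in WT, which did not pass (-0.08 ± 0.06, adjusted p = 0.326). In 6[4]10 it ran from 30.8 to 49.2 CPM with a median of 42.7 CPM in zQ175, against 49.3 to 60.1 CPM with a median of 52.6 CPM in WT (-0.37 ± 0.09, adjusted p = 0.00194). In 2+6[8]10 it ran from 43.3 to 52.6 CPM with a median of 46.7 CPM in zQ175, against 49.0 to 56.8 CPM with a median of 54.9 CPM in WT (-0.23 ± 0.06, adjusted p = 0.00297). The Untreated genotypes of 6[4]10 did not overlap, the single comparison of 9 without overlap for this gene. In treated mice Slc5a7 fell in all 4 comparisons at 10 months and, at 6 months, with NTC (-0.16 ± 0.06, adjusted p = 0.0364) while HTT-10150 mice did not pass (-0.11 ± 0.06, adjusted p = 0.182). The NTC call at 6 months was lost in 7 of 14 alternatives (adjusted p up to 0.200), and the difference between these comparisons did not pass (0.05 ± 0.09, adjusted p = 0.9999). The calls of 6[4]10 were lost in 3 of 14 alternatives (adjusted p up to 0.0816) with NTC and with HTT-10150 in 4 of 14 alternatives (adjusted p up to 0.111).

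Slc10a4 (ENSMUSG00000029219, chromosome 5, 73006883 to 73012955, plus strand) had estimates below 0 in all 9 comparisons and passed in 3. In Untreated mice of 2[4]6 it ran from 19.4 to 22.2 CPM with a median of 21.2 CPM in zQ175, against 20.1 to 26.7 CPM with a median of 23.5 CPM in WT (-0.16 ± 0.06, adjusted p = 0.0205). The others were NTC (-0.21 ± 0.06, adjusted p = 0.00757) and HTT-10150 (-0.17 ± 0.07, adjusted p = 0.0435) in 2+6[8]10. The Untreated call was lost in 4 of 14 alternatives (adjusted p up to 0.169), the NTC call in 2 of 15 alternatives (adjusted p up to 0.203) and the HTT-10150 call in 8 of 15 alternatives (adjusted p up to 0.133). Ache (ENSMUSG00000023328, chromosome 5, 137287519 to 137294466, plus strand), the acetylcholinesterase, fell in 0 comparisons and rose in 2. In NTC mice of 6[4]10 it ran from 87.8 to 106.5 CPM with a median of 96.5 CPM in zQ175, against 74.5 to 99.3 CPM with a median of 91.0 CPM in WT (0.12 ± 0.05, adjusted p = 0.0429). In HTT-10150 mice of 2+6[8]10 it ran from 77.9 to 100.4 CPM with a median of 88.7 CPM in zQ175, against 70.3 to 90.2 CPM with a median of 84.9 CPM in WT (0.12 ± 0.05, adjusted p = 0.0464). The groups overlapped in both, and these were the smallest calls among the members. They were lost in 8 of 14 alternatives (adjusted p up to 0.208) with NTC and in 8 of 15 alternatives (adjusted p up to 0.558) with HTT-10150.

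Without the 22 libraries high in cortical or thalamic markers, an alternative added after the data were seen, Chrm4 passed as lower in 9 of 9 comparisons, Chrm1 in 9, Chat in 8, Slc18a3 in 8, Slc5a7 in 6, Slc10a4 in 3 and Chrm3 in 2, and Ache passed as higher in 0. Whether counting used strand is not given in the sources used here, and opposite-strand genes share exonic bases with 3 members: Gm22820 shares 329 with Chrm1, Gm42456 shares 98 with Ache, and 9330158H04Rik overlaps one end of Chrm2.

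Whether the genotype difference of Untreated mice varied with age or cohort was tested as the difference between strategies, in a single fit of all 143 libraries that also took in Chrm5. Of 10 members, 0 passed for 6[4]10 against 2[4]6 (0.835% of all genes did), 0 for 2+6[8]10 against 2[4]6 (0.0675%) and 0 for 2+6[8]10 against 6[4]10 (0.0123%), by edgeR and by DESeq2. At an unadjusted p under 0.05 there were 2 in the first and 0 in the others. These 2 were Slc5a7, lower in zQ175 by more in 6[4]10 than in 2[4]6 (-0.29 ± 0.11, adjusted p = 0.147), and Chrm1, by less (0.12 ± 0.05, adjusted p = 0.234). For Chrm4 the difference was 0.08 ± 0.10 and for Chat -0.17 ± 0.10. A larger genotype effect on the presynaptic genes at 10 months than at 6 months was therefore not shown.

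The second question was whether HTT-10150 moved these genes. Against NTC in zQ175 mice, 0 of 9 members passed in 2[4]6 (0% of all genes did), 0 in 6[4]10 (0%) and 0 in 2+6[8]10 (3.16%). In WT mice 0 passed in 2[4]6 (0.00636%), 0 in 6[4]10 (0%) and 0 in 2+6[8]10 (0.0129%). DESeq2 also called 0 members in each of these 6 comparisons, and edgeR gave an unadjusted p under 0.05 for 1 member in zQ175 mice of 2[4]6 (Chat), 1 in zQ175 mice of 2+6[8]10 (Ache) and 1 in WT mice of 2+6[8]10 (Chrm2).

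Chat in zQ175 mice of 2[4]6 ran from 23.9 to 29.1 CPM with a median of 26.6 CPM with HTT-10150, against 21.6 to 24.5 CPM with a median of 23.9 CPM with NTC (0.17 ± 0.06, adjusted p = 0.797). Its estimates were above 0 in all 6 comparisons, from 0.09 to 0.17 in zQ175 and from 0.06 to 0.14 in WT mice. Those of Slc18a3 ran from 0.02 to 0.14 in zQ175 and from 0.08 to 0.12 in WT mice, and those of Slc5a7 from 0.04 to 0.09 in zQ175 and from 0.02 to 0.13 in WT mice. None passed. NTC mice are shared with the comparison of NTC against Untreated mice, in which Chat had estimates of -0.16 to -0.09 in zQ175 and -0.08 to -0.02 in WT mice, Slc18a3 of -0.20 to -0.04 in zQ175 and -0.14 to -0.04 in WT mice, and Slc5a7 of -0.17 to -0.03 in zQ175 and -0.14 to -0.03 in WT mice, all below 0. The 95% intervals of the zQ175 comparisons, which show what the data allow, reached from -0.08 to 0.29 for Chat, from -0.16 to 0.31 for Slc18a3 and from -0.15 to 0.22 for Slc5a7.

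Ache in zQ175 mice of 2+6[8]10 ran from 77.9 to 100.4 CPM with a median of 88.7 CPM with HTT-10150, against 73.2 to 88.2 CPM with a median of 79.8 CPM with NTC (0.13 ± 0.05, adjusted p = 0.0968), the lowest adjusted p of a member in these comparisons. Chrm4, the receptor furthest from its WT level, was at -0.05 ± 0.08, -0.09 ± 0.08 and 0.00 ± 0.06 in zQ175 mice of 2[4]6, 6[4]10 and 2+6[8]10, with 95% intervals within -0.25 to 0.11. Chrm1 was at -0.04 ± 0.04, -0.03 ± 0.04 and 0.01 ± 0.04, with intervals within -0.11 to 0.09. The interval of Chrm4 ends far short of the rise that would undo its genotype difference. In the same zQ175 mice Htt mRNA at collection was at 99.5%, 80.4% and 78.1% of its NTC mean. How far Htt was lowered before collection is not known from these data. The effect of a lower Htt level at collection was not tested. Chrm2 in WT mice of 2+6[8]10 ran from 10.8 to 17.9 CPM with a median of 13.8 CPM with HTT-10150, against 11.1 to 14.3 CPM with a median of 11.9 CPM with NTC (0.26 ± 0.10, adjusted p = 0.845). With Untreated in place of NTC mice as the control, this Chrm2 estimate was -0.08 ± 0.10 (adjusted p = 0.9997 by edgeR). On that control Chat in zQ175 mice of 2[4]6 was at 0.08 ± 0.06 (adjusted p = 0.680). Ache in zQ175 mice of 2+6[8]10 was then at 0.10 ± 0.05 (adjusted p = 0.304).

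**Figure D3:**
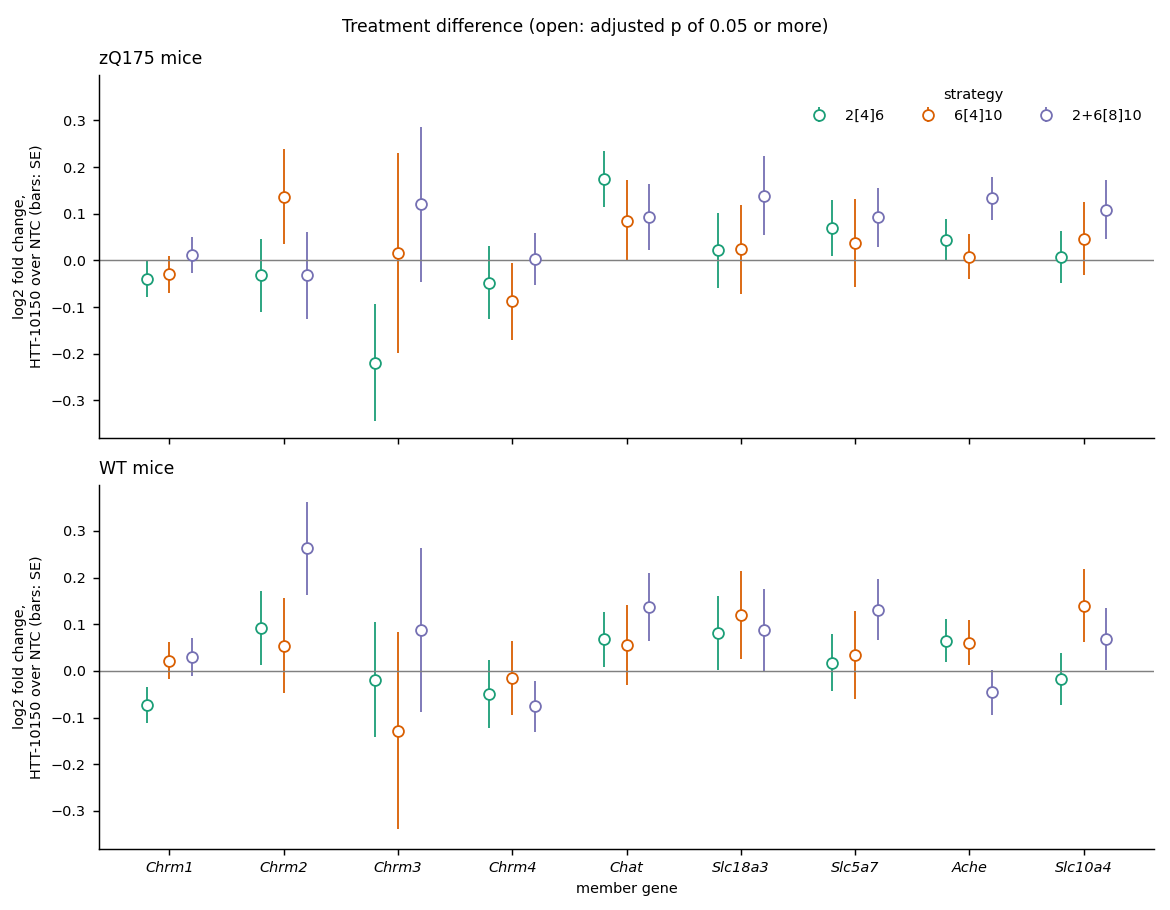
Log2 fold change of HTT-10150 over NTC with 1 SE for the 9 tested genes in zQ175 mice (upper panel) and WT mice (lower panel), by strategy. All points are open since none had an adjusted p under 0.05; Chat, Slc18a3 and Slc5a7 lie above 0 in each comparison, and Chrm4 stays within -0.09 and 0.00 in zQ175 mice.

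The HTT-10150 effect was also compared between zQ175 and WT mice. Of 9 members, 0 passed in 2[4]6 (0% of all genes), 0 in 6[4]10 (0%) and 0 in 2+6[8]10 (0.529%), by edgeR and by DESeq2. An unadjusted p under 0.05 was given by 0, 0 and 2 members, Ache (0.18 ± 0.07, adjusted p = 0.225) and Chrm2 (-0.30 ± 0.14, adjusted p = 0.362) in 2+6[8]10. NTC was then set against Untreated. In zQ175 mice 0 members passed in 2[4]6, 6[4]10 and 2+6[8]10 (0%, 0% and 0% of all genes), and in WT mice 0 passed (0%, 0% and 0.181%), with 0 by DESeq2 too. In zQ175 mice of 2+6[8]10, 4 members had an unadjusted p under 0.05, Chat (-0.16 ± 0.07), Slc18a3 (-0.20 ± 0.08), Slc5a7 (-0.17 ± 0.06) and Slc10a4 (-0.14 ± 0.06), each with an adjusted p of 0.9999.

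In WT mice of 2+6[8]10, Slc5a7 (-0.14 ± 0.06, adjusted p = 0.370) and Chrm2 had an unadjusted p under 0.05. Chrm2 ran from 11.1 to 14.3 CPM with a median of 11.9 CPM with NTC, against 13.1 to 18.8 CPM with a median of 14.6 CPM without treatment (-0.34 ± 0.10, adjusted p = 0.111). With those groups fitted alone it passed (-0.34 ± 0.06, adjusted p = 0.0262 by edgeR), and in no other alternative. The thalamic markers, which Chrm2 followed across libraries, moved with it, with a summed median of 17.2 CPM with NTC and 21.1 CPM without treatment. With the cortical and thalamic sums as covariates the estimate was -0.26 ± 0.07, adjusted p = 0.145. The NTC mice are the same ones against which HTT-10150 was compared above.

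Beyond group means, levels of some members went together from mouse to mouse, and others ran against each other. Levels were compared over 143 libraries after group means and sex means within strategy had been taken out of log2 CPM. Of 45 pairs, 29 had a Benjamini-Hochberg adjusted permutation p under 0.05 for Pearson's r, 21 positive and 8 negative, and 26 for Spearman's rho. Pairs of genes outside the list were not compared, so no share over all genes stands beside these counts. Whether such relations are particular to the members was not tested. The 6 pairs among Chat, Slc18a3, Slc5a7 and Slc10a4 had r from 0.44 to 0.65 and rho from 0.37 to 0.60, each with p = 1e-05, the smallest that 100000 permutations can give, and an adjusted p of 3.46e-05. Chat and Slc5a7 had the highest (r = 0.65, rho = 0.56), with r of 0.23, 0.84 and 0.63 within 2[4]6, 6[4]10 and 2+6[8]10. Chat and Slc18a3, of the same locus, had r = 0.57, rho = 0.53, with 0.50, 0.73 and 0.41 within strategies. Slc18a3 and Slc5a7 had r = 0.44, rho = 0.37, with -0.02, 0.71 and 0.41 within strategies, so this relation did not hold in 2[4]6. Without the 2 libraries farthest from the median of the first gene, the 6 pairs had r from 0.36 to 0.63.

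Ache went with Slc18a3 (r = 0.57, rho = 0.56, p = 1e-05), with r of 0.62, 0.60 and 0.49 within strategies, and less closely with Slc5a7 (r = 0.23, rho = 0.25, adjusted p = 0.00929). Of the receptors, Chrm1 went with Chrm4 (r = 0.53, rho = 0.43, p = 1e-05), with 0.75, 0.45 and 0.39 within strategies. Chrm2 went with Chrm3 (r = 0.47, rho = 0.45, p = 1e-05), with 0.43, 0.44 and 0.54 within strategies. Chrm2 ran against Chrm1 (r = -0.47, rho = -0.46, p = 1e-05), with -0.46, -0.56 and -0.37 within strategies, and against Chrm4 (r = -0.41, rho = -0.35, p = 1e-05), with -0.43, -0.43 and -0.39. Without the 2 farthest libraries these 5 pairs had r of 0.59, 0.47, 0.45, -0.42 and -0.41 in the order given. Chrm4 and Slc5a7 had r = 0.21, rho = 0.01 and, without those libraries, r = 0.04, so in this form that relation rests on them. With those libraries kept and a replicate block taken out, r was 0.38 (adjusted permutation p = 0.000591). With the library name code taken out it was 0.47 (adjusted permutation p = 0.000589). Chrm3 ran against Chrm4 (r = -0.31), Chat (r = -0.31), Slc18a3 (r = -0.24), Slc5a7 (r = -0.33), Ache (r = -0.28) and Slc10a4 (r = -0.345). Each had an adjusted permutation p under 0.05 for Pearson's r. For Chrm3 and Slc18a3 rho was -0.09, which did not pass. Pairs with Chrm5 rest on few counts and are not described.

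**Figure D4:**
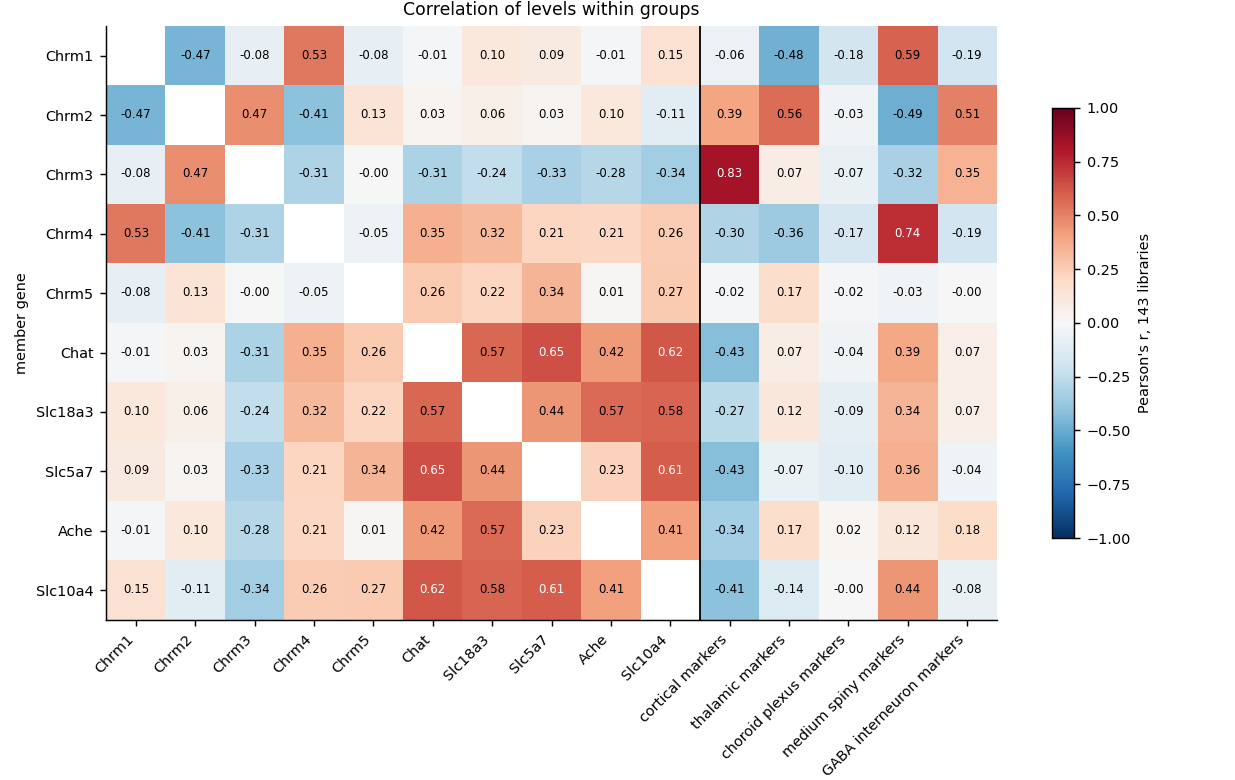
Pearson's r of each pair of member genes and of each member with 5 summed marker lists over 143 libraries, after group and sex means were removed; the colour scale gives the sign and size of r. Chat, Slc18a3, Slc5a7 and Slc10a4 form a block between 0.44 and 0.65, and the highest value is that of Chrm3 with the cortical markers (0.83).

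Several members varied with the marker sums. Over 50 pairs of a member with a summed marker list, a family added after the data were seen, Chrm3 followed the cortical markers (r = 0.83, rho = 0.79, p = 1e-05), with 0.74, 0.87 and 0.85 within strategies. Chrm2 followed the thalamic markers (r = 0.56, rho = 0.54, p = 1e-05) and the GABAergic interneuron markers (r = 0.51, rho = 0.49, p = 1e-05) and ran against the medium spiny markers (r = -0.49, rho = -0.51, p = 1e-05). Chrm4 followed the medium spiny markers (r = 0.74, rho = 0.62, p = 1e-05), with 0.78, 0.74 and 0.65 within strategies, as did Chrm1 (r = 0.59, rho = 0.56, p = 1e-05), with 0.70, 0.60 and 0.48. Without the 2 farthest libraries, r was 0.82 for Chrm3 with the cortical, 0.53 for Chrm2 with the thalamic and 0.64 for Chrm4 with the medium spiny markers. Chat (r = -0.43, rho = -0.37, p = 1e-05), Slc5a7 (r = -0.43, rho = -0.37, p = 1e-05) and Slc10a4 (r = -0.41, rho = -0.31, p = 1e-05) ran against the cortical markers, with an adjusted p of 4.17e-05 in each pair named so far. The presynaptic genes followed the medium spiny markers too, Slc10a4 (r = 0.44, rho = 0.36, adjusted p = 4.17e-05, r without the 2 farthest libraries 0.41), Chat (r = 0.39, rho = 0.24, adjusted p = 7.69e-05, r without the 2 farthest libraries 0.24), Slc5a7 (r = 0.36, rho = 0.12, adjusted p = 0.000265, r without the 2 farthest libraries 0.23) and Slc18a3 (r = 0.34, rho = 0.22, adjusted p = 0.000100, r without the 2 farthest libraries 0.24). Within zQ175 libraries r was 0.56 for Slc10a4, 0.54 for Chat, 0.53 for Slc5a7 and 0.42 for Slc18a3, and within WT libraries 0.27, 0.15, 0.01 and 0.24 for the same genes. The part of these marker sums in the correlations among members was not tested.

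**Figure D5:**
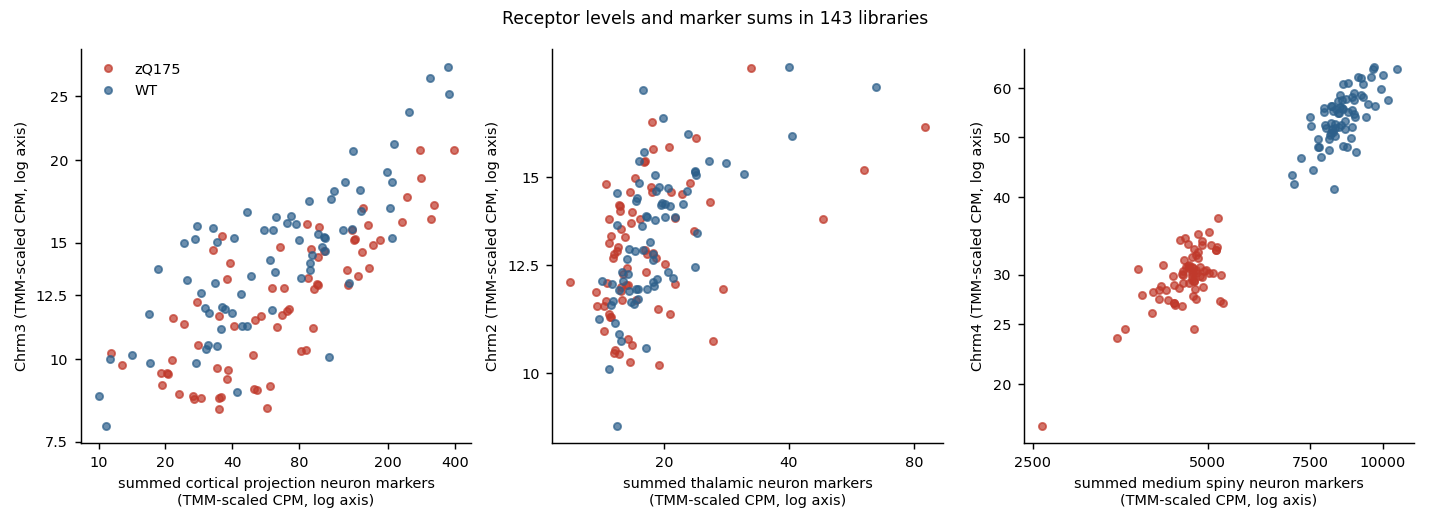
Chrm3 against summed cortical projection neuron markers, Chrm2 against summed thalamic markers and Chrm4 against summed medium spiny neuron markers in 143 libraries, zQ175 and WT in separate colours, in TMM-scaled CPM with logarithmic axes. Chrm3 rises along the cortical sum in both genotypes, while for Chrm4 the genotypes form separate clouds, with medium spiny sums of 2587 to 5308 CPM in zQ175 and 6969 to 10562 CPM in WT libraries.

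Across the 18 group means of log2 CPM, the genes with the pattern most like that of Chrm4, among 13190, were Sec14l1 (r = 0.9975), Arpp21 (r = 0.9967) and Bcr (r = 0.9964). For Chat the first 2 were Abcc12 (r = 0.9373) and Plpp3 (r = 0.9358). Between Chrm4 and Chat themselves r was 0.884, which placed Chat at rank 1268 for Chrm4 and Chrm4 at rank 240 for Chat. These are descriptions over 18 points, 9 of which are zQ175 groups.

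Further genes of the pathway were taken from lists of known function, in Untreated mice, and values are given for 2[4]6, 6[4]10 and 2+6[8]10 in that order. Of all genes, 17.2% lower and 15.3% higher was the share in 2[4]6, 17% lower and 19.2% higher in 6[4]10 and 18.3% lower and 17.1% higher in 2+6[8]10, and the counts of these short lists are descriptions to be read beside it. Of 8 other genes of cholinergic neurons 7 were tested, with 2, 3 and 3 lower and 1, 1 and 0 higher. Tacr1, the substance P receptor, was lower in each (-0.23 ± 0.05, -0.26 ± 0.07 and -0.20 ± 0.06). Ngfr was lower in the last 2 (-0.20 ± 0.21, -0.85 ± 0.27 and -0.72 ± 0.24). Isl1, a transcription factor that specifies these neurons, was higher in the first 2 (0.27 ± 0.07, 0.23 ± 0.09 and 0.08 ± 0.07), while Lhx8, another, did not pass (-0.02 ± 0.09, -0.24 ± 0.10 and -0.07 ± 0.09).

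Of 16 nicotinic receptor subunits, 8, 8 and 7 were tested, with 2, 3 and 2 lower and 2 higher in each. Chrna4 (-0.87 ± 0.13, -0.93 ± 0.17 and -0.97 ± 0.19) and Chrna7 (-0.51 ± 0.08, -0.50 ± 0.09 and -0.42 ± 0.08) fell, and Chrnb1 fell in 6[4]10 alone (-0.59 ± 0.19). Chrnb2 rose (0.15 ± 0.04, 0.19 ± 0.04 and 0.22 ± 0.03), as did Chrnb4 (0.77 ± 0.21, 0.88 ± 0.29 and 1.13 ± 0.26), with median levels of 0.944 CPM in zQ175 and 0.499 CPM in WT libraries. Of 8 further genes that handle acetylcholine and choline, 2, 3 and 2 were lower and 1, 1 and 2 higher. Lynx1, a membrane-anchored modulator of nicotinic receptors, fell (-0.69 ± 0.06, -0.61 ± 0.05 and -0.59 ± 0.05). Prima1, which anchors acetylcholinesterase to neuronal membranes, fell (-0.77 ± 0.09, -0.71 ± 0.08 and -0.61 ± 0.08), and the choline kinase Chkb rose (0.18 ± 0.05, 0.18 ± 0.06 and 0.19 ± 0.05).

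Of 17 genes that act downstream of muscarinic receptors, all tested, 9 were lower in each strategy and 2, 5 and 3 higher. Adcy5, the main striatal adenylyl cyclase, fell (-0.90 ± 0.06, -0.85 ± 0.08 and -0.82 ± 0.05), as did Rgs4, which turns G proteins off (-0.88 ± 0.07, -0.78 ± 0.08 and -0.90 ± 0.06). On the Gq arm, the phospholipase Plcb1 (-0.52 ± 0.05, -0.48 ± 0.06 and -0.49 ± 0.04) and the IP3 receptor Itpr1 (-0.73 ± 0.05, -0.64 ± 0.07 and -0.60 ± 0.05) fell. Kcnq5, a subunit of the channel that carries the M-current, fell (-0.47 ± 0.06, -0.56 ± 0.08 and -0.48 ± 0.05), and so did Rgs9 (-0.81 ± 0.06, -0.79 ± 0.09 and -0.78 ± 0.06), which is also in the medium spiny list. Gnaq itself rose by a small amount (0.10 ± 0.04, 0.11 ± 0.04 and 0.07 ± 0.03). For HTT-10150 against NTC in zQ175 mice, 2 genes of this list passed, both lower and both in 2+6[8]10, Itpr1 (-0.16 ± 0.05, adjusted p = 0.0448) and Plcb1 (-0.14 ± 0.04, adjusted p = 0.0458). In that comparison 3.16% of all genes passed, and both adjusted p lie close to the threshold. The count over all genes there ran from 30 to 808 over the alternatives (490 in the reported fit). Alternatives for Itpr1 and Plcb1 are not given here.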

How the data were processed

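The labels describe RNA-seq of polyA-selected RNA from mouse striatum. The authors deposited RSEM expected counts per gene against GRCm38, per the submitters' processing notes; tool versions and annotation were not stated there. Another table that the authors deposited, named for FPKM, has columns that each sum to 1000000 and was treated as TPM. Expected counts were rounded (78.4% of nonzero values were whole within 1e-06), and 7 entries that are not mouse genes (5.91e-06% of counts) were left out. Symbols matched 40254 gene entries.

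Tests used edgeR 4.0.16 in R 4.3.3 (quasi-likelihood F test, filterByExpr by group, TMM, robust), each strategy having its own model of 6 groups plus sex, and Benjamini-Hochberg adjustment over all genes tested. SE is the absolute log2 fold change over the square root of F. Strategy differences came from 1 fit of 143 libraries. Correlations used log2 CPM with a prior count of 2 and two-sided permutation tests. DESeq2 1.42.0 was an alternative. Code was tested on simulated counts. Positions come from GENCODE M21 on GRCm38 and sequences from RefSeq.

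The members and lists were chosen with earlier results of these data known. Beside the members, named genes are those of the lists called in all 3 Untreated comparisons or for HTT-10150 (at most 6 a list), and the 3 most like Chrm4 and Chat. A gene named by these rules is not reported here. Chrnb1, Gnaq, Isl1, Lhx8 and Ngfr were chosen after their values were seen. Whether mice shared litters is not given, and p-values measure the spread between mice.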

Additional observations from a re-analysis of the deposited data

Results flagged for a closer look

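In 15 of 180 combinations of a member and a group, 1 mouse stood apart from the rest of its group by Dixon's criterion, 10 as the highest and 5 as the lowest. Chance gives about 1 in 20. The 15 values fell on 13 libraries.

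Of these, 2 libraries held 2 such values each. In zQ175 HTT-10150 6[4]10, male replicate 2 had Chrm4 at 17.2 CPM, against 26.8 to 32.9 CPM in the other mice of its group, and Slc5a7 at 25.6 CPM, against 39.8 to 50.8 CPM in the other mice of its group. Its medium spiny marker sum of 2587 CPM was the lowest of all libraries, and its cortical sum was 313 CPM. In zQ175 Untreated 6[4]10, male replicate 4 had Chrm3 at 20.7 CPM, against 8.73 to 13.7 CPM in the other mice of its group, and Slc18a3 at 9.30 CPM, against 12.8 to 14.9 CPM in the other mice of its group. Its cortical sum of 395 CPM was the highest of all libraries. The part of the marker sums in these values was not tested.

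Of the other receptor values, Chrm3 was at 25.2 CPM, against 13.2 to 17.5 CPM in the other mice of its group in WT HTT-10150 2[4]6 male replicate 1, whose cortical sum was 376 CPM. Chrm3 was at 20.7 CPM, against 14.1 to 16.7 CPM in the other mice of its group in WT NTC 2[4]6 female replicate 4. Chrm2 was at 14.3 CPM, against 11.1 to 12.2 CPM in the other mice of its group in WT NTC 2+6[8]10 female replicate 3. Chrm4 was at 33.6 CPM, against 28.4 to 30.7 CPM in the other mice of its group in zQ175 NTC 6[4]10 male replicate 2, and at 61.2 CPM, against 47.7 to 52.7 CPM in the other mice of its group in WT Untreated 2+6[8]10 male replicate 2. Chrm5, with few counts, was at 0.703 CPM, against 0.0520 to 0.327 CPM in the other mice of its group in zQ175 NTC 6[4]10 male replicate 3, and at 0.604 CPM, against 0.135 to 0.340 CPM in the other mice of its group in WT Untreated 2+6[8]10 female replicate 1.

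Of the presynaptic genes, Chat was at 29.8 CPM, against 22.7 to 25.4 CPM in the other mice of its group in zQ175 Untreated 2[4]6 male replicate 3. Slc10a4 was at 24.4 CPM, against 19.6 to 21.6 CPM in the other mice of its group in zQ175 NTC 2[4]6 male replicate 2. Ache was at 72.5 CPM, against 81.8 to 86.1 CPM in the other mice of its group in zQ175 Untreated 2+6[8]10 female replicate 3. Slc5a7 was at 49.0 CPM, against 53.9 to 56.8 CPM in the other mice of its group in WT Untreated 2+6[8]10 male replicate 1, whose cortical sum was 208 CPM.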

How the results depend on the processing

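Of 675 alternatives of the 47 called genotype results, 602 kept direction and passed, 73 kept direction and did not pass, and 0 turned round; 27 results passed in every alternative run. Chrm4 (-0.97 to -0.72) and Chrm1 (-0.33 to -0.16) passed in all 129 each; Ache missed in 16 of 29, Slc10a4 in 14 of 44, Slc5a7 in 14 of 101, Chat in 13 (10 of them in Untreated 2[4]6), Slc18a3 in 10 of 100 and Chrm3 in 6 of 28. In a single fit of all 143 libraries, 3 members were called in Untreated 2[4]6 (6 in the reported fit). With length and GC slopes as covariates, an alternative added after the data were seen, 3 were called in Untreated 6[4]10 (5). With the compared groups fitted alone, 1 member, Chrm2, was called for NTC against Untreated in WT 2+6[8]10 (0). Correlated pairs numbered 13 within 2[4]6 and 13 within 2+6[8]10 (29 over all), with fewer libraries in each. Leaving out the mice of each replicate number in turn gave 2 to 5 members in Untreated, 2 to 4 in NTC and 2 to 4 in HTT-10150 mice of 2[4]6 (6, 5 and 4), 5 to 5, 3 to 4 and 3 to 6 in 6[4]10 (5, 5 and 5), 4 to 5, 5 to 6 and 5 to 6 in 2+6[8]10 (4, 6 and 7), and 0 to 0 in all other comparisons. The lowest counts of 2[4]6 came without replicate 4. Replicate numbers did not meet the bar for pairing: 139 of 350 same-numbered pairs had a correlation over 0.1 (median 0.0588, other numbers -0.0537), though 63 of 143 libraries correlated best with their own number. Library names also share a code of unstated meaning, held by 1 genotype in 62 of 63 cases. Of 106 same-code pairs across treatments 62 were over 0.1 (median 0.131, other codes -0.0366). With this code as a block, an alternative added after the data were seen, 0 members were called in the 15 comparisons of treatment; genotype comparisons were not fitted with it. With a replicate block, Slc18a3 was called in 8 of 9 comparisons (7) and Slc10a4 in 2 (3). Over all genes, counts for HTT-10150 against NTC in zQ175 2+6[8]10 ran from 30 to 808 (490), for NTC against Untreated in WT 2+6[8]10 from 2 to 82 (28), for the genotype difference of HTT-10150 in 2+6[8]10 from 0 to 221 (82) and for 6[4]10 against 2[4]6 from 6 to 495 (136). Low counts limit Chrm5. Taking out a replicate block left 26 correlated pairs and taking out the code left 22 (29), both added after the data were seen; the 6 presynaptic pairs then had r from 0.56 to 0.71 and from 0.56 to 0.67.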
